A study of Mus musculus with 6 samples.

Results

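T cells carry surface receptors that restrain or boost their response, and the 10 genes described here encode such receptors, their ligands and the factor that defines regulatory T cells. They are the inhibitory receptors Pdcd1 (PD-1), Ctla4, Lag3, Havcr2 (TIM-3), Tigit and Btla, the costimulatory receptor Icos, the PD-1 ligands Cd274 (PD-L1) and Pdcd1lg2 (PD-L2), and the transcription factor Foxp3. All were taken by name from the deposited expression table, which lists 20076 genes, and all 10 were present and passed the filter on low values, which 19667 genes passed.

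The table holds bulk RNA-seq of 6 mouse ovarian tumors, 3 from wild-type (WT) mice and 3 from Tgm2 knockout mice, and it was used to ask how the loss of tissue transglutaminase in the host alters the tumor transcriptome. Hosts were C57BL/6 mice aged 6 to 10 weeks. Both groups received the same cancer cells, ID8 mouse ovarian surface epithelial cells deleted for Trp53 and Brca1 (Trp53-/- Brca1-/-), injected under the bursa of both ovaries, and tumors were collected 6 weeks later. Because the knockout is carried by every host cell but not by the injected cells, the genotypes being compared are those of the stroma, vessels and leukocytes. The labels name no drug for either group, and every tumor derives from the same modified line. They do not say which mice shared a litter or a day, and p-values measure the spread between these 6 tumors.

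PD-1 is bound by PD-L1 and PD-L2, and the engaged receptor dampens signalling from the T cell receptor. CTLA-4 competes with the costimulatory receptor CD28 for CD80 and CD86, TIGIT competes with CD226 for the poliovirus receptor and nectin-2, BTLA binds the herpesvirus entry mediator encoded by Tnfrsf14, LAG-3 binds MHC class II, and ICOS is engaged by its ligand on antigen-presenting cells. Most of these receptors appear on activated or exhausted T cells, TIM-3 is also found on macrophages and dendritic cells, BTLA is also found on B cells, and FOXP3 is the lineage factor of regulatory T cells, which themselves carry much CTLA-4, TIGIT and ICOS.

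The deposited values were labelled TPM but sum to between 32316613 and 37717165 per tumor, so they are called normalized counts here. The lowest values of genes with 1 transcript fell on steps of 1 read, worth between 0.938 and 1.094 normalized counts, and between 96.6% and 99.2% of them lay within 0.1 of a whole read, which puts the depth at between 33300000 and 37100000 reads per tumor. Tgm2 was measured at 14978, 12154 and 13180 normalized counts across WT tumors, against 5853, 6071 and 8157 across Tgm2 knockout tumors (log2 fold change -1.02, SE 0.22, limma adjusted p = 0.391). The groups did not overlap, and the transcript that remained in knockout hosts cannot be assigned to cancer cells or host cells in bulk RNA. The labels name the material as cancer cells. Wt1 and Krt8, which such epithelial cells are known to express, were abundant in every tumor (Wt1 between 13131 and 20641 normalized counts), while genes of leukocytes, adipocytes and ovary were present as well. Epcam, another epithelial gene, varied from 90.5 in WT tumor 1 to 8047 in WT tumor 3. Ceacam1 was also highest in WT tumor 3, at 5170 against values between 629 and 1279 in the other tumors.

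A pair of tumors stood apart. Cyp11a1, the enzyme that opens steroid synthesis, was listed at 8648 normalized counts in WT tumor 1 and 22480 in Tgm2 knockout tumor 1, against values between 158 and 209 in the other 4, and Foxl2, Lhcgr and Gdf9, genes of granulosa cells, luteal cells and oocytes, were highest in knockout tumor 1. Mitochondrial transcripts took 7.0% of WT tumor 3 and between 1.79% and 3.59% of the other tumors. The part of ovarian tissue and of RNA quality in the values below was not tested, and the main counts are also given without both tumors with high Cyp11a1. Not every ovarian gene followed it, since Star was between 4223 and 8970 normalized counts in all 6 tumors and highest in WT tumor 2.

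All 10 genes had a higher mean log2 level in the Tgm2 knockout group, while 47.3% of all tested genes did. Their median log2 fold change was 1.09, against -0.03 for all genes tested. With the mean of 17 T cell markers as a covariate, Ctla4, Lag3, Havcr2 and Cd274 turned below 0 (log2 fold changes of -0.23, -0.61, -0.43 and -0.43), while Tigit was at 0.49, Btla at 0.99, Icos at 0.59, Pdcd1lg2 at 0.42, Pdcd1 at 0.18 and Foxp3 at 0.16. With white adipocyte markers as the covariate Lag3, Havcr2 and Cd274 did. Both covariates were higher in every knockout tumor than in any WT tumor, so each is confounded with genotype. With the T cell marker covariate the limma adjusted p was 0.999 for each of the 10. Neither the count of higher means nor the median fold change is a test, because the genes are not independent of one another. In the limma fit across all genes, 0 of the 10 passed an adjusted p under 0.05 with a log2 fold change over 1 in size, limits that 20 genes (0.102%) passed. At an unadjusted p under 0.05, 4 of the 10 were higher in the knockout group (Btla, Tigit, Icos and Pdcd1), against 3.4% of all genes in that direction and 5.78% in either. For 5 of the 10 (Pdcd1, Tigit, Btla, Icos and Foxp3), each knockout tumor was higher than every WT tumor, against 5.18% of all genes, and 10.5% of all genes were separated in either direction. An exact permutation test of 3 tumors against 3 cannot give a p below 0.1, and those 5 genes reached it. After quantile normalization 2 genes, Tigit and Btla, remained separated, against 5.15% of all genes in that direction. Without both tumors with high Cyp11a1, leaving 2 against 2, all 10 were separated upward, where 17.6% of all genes were, and 0 of the 10 and 14 of all genes passed the adjusted limits of limma. This comparison was added after the values were seen. WT tumor 1 was the highest WT tumor for every gene of the 10 but Btla, and knockout tumor 1 was the lowest knockout tumor for all 10. Leaving both out therefore favored separation, and the 10 of 10 is no support for a difference.

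The sum of the 10 genes was 2487, 1541 and 1429 normalized counts in the 3 WT tumors, in the order of their numbers, against 1991, 2683 and 3930 in the knockout group. WT tumor 1 was thus above knockout tumor 1. Knockout tumor 3 was highest for 8 of the 10 genes, with Pdcd1lg2 highest in knockout tumor 2 and Cd274 highest in WT tumor 1. WT tumor 2 was lowest for 7 and WT tumor 3 for the other 3. In bulk RNA, fewer cells of a type and less RNA per cell cannot be told apart, and this holds for each value here.

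**Figure D1:**
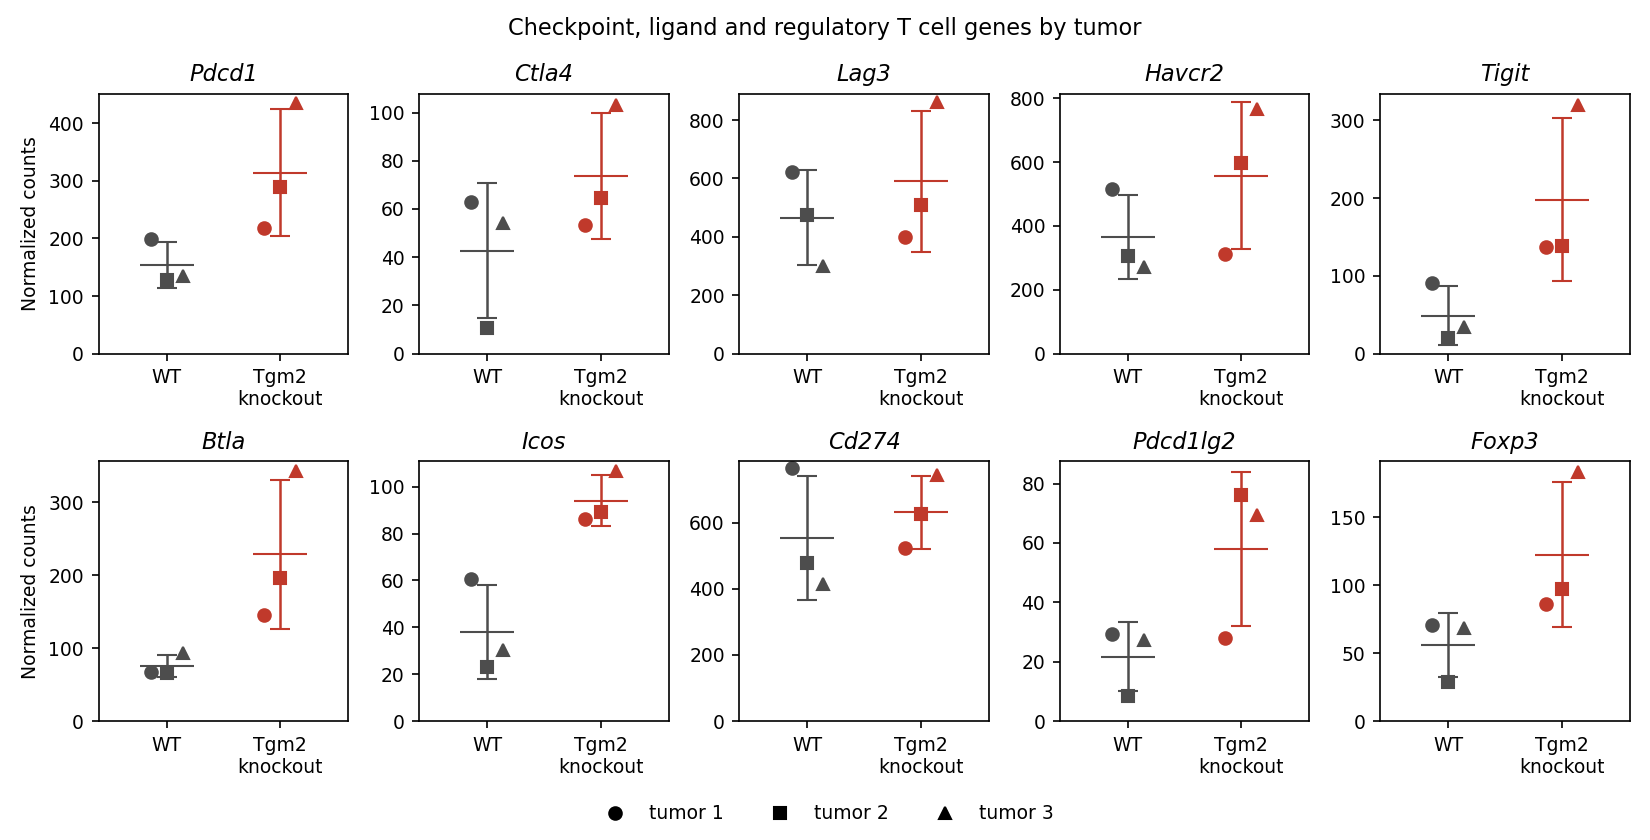
Normalized counts (y axis, from 0, scale set per gene) of the 10 genes in 3 WT (grey) and 3 Tgm2 knockout (red) tumors, with symbols for the tumor number, which does not pair tumors across groups, and bars for the mean and SD. The groups are separated for Pdcd1, Tigit, Btla, Icos and Foxp3 and overlap for the other 5.

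Tigit, at chromosome 16, 43648867 to 43664146 on the minus strand (GRCm38), had the largest fold change of the 10. Tigit was at 91.5, 19.7 and 34.5 normalized counts across WT tumors, against 137, 138 and 319 across knockout tumors. The lowest knockout tumor was above the highest WT tumor, and WT tumor 1 was the closest to the knockout group. The log2 fold change was 2.17 (SE 0.66, 95% interval 0.66 to 3.67), with an unadjusted p of 0.0102 and a limma adjusted p of 0.682. The exact permutation p was 0.1.

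Btla lies on the plus strand of the same chromosome, at 45224315 to 45257670, 1560168 bases from Tigit. Its 3 WT tumors were at 68.0, 66.6 and 93.7 normalized counts and its knockout tumors at 146, 197 and 343. The WT values lay close together (76.1 ± 15.3, SD, n = 3) and every knockout tumor was above them (229 ± 102). Btla had the lowest unadjusted p of the 10, with a log2 fold change of 1.5 (SE 0.45, 95% interval 0.48 to 2.52), a limma adjusted p of 0.670 and an exact permutation p of 0.1.

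The 200 bases before the RefSeq starts (GRCm38.p6) of Tigit and Btla, which were among the separated genes, are shown. Those of Havcr2 and Cd274, whose groups overlapped, are shown beside them. Each is written 5′ to 3′ along the gene's strand and ends at the base before the start, and capitals mark a RUNX site, searched as TGTGGT on both strands and read as ACCACA on the other strand, or an AP-1 site, searched as TGANTCA.
Tigit, chr16:43664185-43664384, minus strand: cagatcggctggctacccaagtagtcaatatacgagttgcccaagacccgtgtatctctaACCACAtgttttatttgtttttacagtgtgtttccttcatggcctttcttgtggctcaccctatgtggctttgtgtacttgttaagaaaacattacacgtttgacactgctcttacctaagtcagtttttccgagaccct
Btla, chr16:45224137-45224336, plus strand: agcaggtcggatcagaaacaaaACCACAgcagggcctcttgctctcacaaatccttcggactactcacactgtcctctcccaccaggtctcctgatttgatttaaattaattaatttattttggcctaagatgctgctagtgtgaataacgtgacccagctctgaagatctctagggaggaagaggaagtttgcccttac
Havcr2, chr11:46454731-46454930, plus strand: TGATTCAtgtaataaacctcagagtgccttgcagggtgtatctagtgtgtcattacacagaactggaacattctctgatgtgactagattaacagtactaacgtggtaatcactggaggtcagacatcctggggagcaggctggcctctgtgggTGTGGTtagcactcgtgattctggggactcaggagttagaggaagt
Cd274, chr19:29367238-29367437, plus strand: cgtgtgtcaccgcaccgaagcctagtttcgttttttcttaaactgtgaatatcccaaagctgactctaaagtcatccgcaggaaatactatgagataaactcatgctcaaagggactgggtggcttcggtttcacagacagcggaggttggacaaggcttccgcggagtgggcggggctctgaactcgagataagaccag
RefSeq entries matched 8 of the 10 genes, and Icos and Lag3 had none. Over the 250 bases before the start, the RUNX letters were present in Tigit, Btla and Havcr2, and in 14% of all 32841 promoters of that length. Pdcd1 and Foxp3, whose groups were separated as well, did not hold the RUNX letters. The AP-1 letters were present in Havcr2 and in 6.75% of promoters, and the gamma-activated site, searched as TTCNNNGAA, in 1 of 2 Foxp3 starts and in 7.02%. The NFAT core GGAAA, which 55.6% of promoters hold, was found in Pdcd1, Ctla4, Tigit, Cd274, Pdcd1lg2 and Foxp3. The core of the interferon-stimulated response element was present in 2.98% of promoters, and the cAMP response element TGACGTCA in 1.55%. Neither was found in the 8 genes. The NFAT core and the gamma-activated site share bases in Foxp3. All searches were on both strands and describe letters, not binding.

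Pdcd1 (chromosome 1, 94038305 to 94052553, minus strand) encodes PD-1, the receptor bound by both ligands measured here. It was at 200, 127 and 135 normalized counts across WT tumors, against 219, 288 and 435 across knockout tumors. WT tumor 1 was just under knockout tumor 1, and the groups did not overlap. The means were 154 ± 39.8 and 314 ± 111 (SD, n = 3 each), a log2 fold change of 1.0 (SE 0.38, 95% interval 0.12 to 1.87) with a limma adjusted p of 0.819.

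Icos, a costimulatory receptor of activated, follicular helper and regulatory T cells, was at 60.6, 22.9 and 30.4 normalized counts across WT tumors, against 86.3, 89.3 and 106 across knockout tumors. Its knockout tumors varied least of the separated genes (94.0 ± 10.9 against 38.0 ± 19.9 in WT, SD, n = 3 each). The log2 fold change was 1.40 (SE 0.54, 95% interval 0.17 to 2.63, limma adjusted p = 0.819). Icos lies 62094 bases from Ctla4, on the same strand of chromosome 1 (60977927 to 61000320 and 60887000 to 60915832). Ctla4, its neighbour and the competitor of CD28, was at 63.0, 10.8 and 54.4 normalized counts across WT tumors, against 53.5, 64.6 and 103 across knockout tumors. Those groups overlapped, with WT tumor 2 far below the other 5. The log2 fold change of 1.05 (SE 0.74) had a 95% interval of -0.65 to 2.75 and a limma adjusted p of 0.894, and the value in WT tumor 2 corresponds to 10.5 estimated reads. Without that tumor the log2 fold change was 0.27.

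Foxp3 (chromosome X, 7573644 to 7595245, plus strand) was at 70.7, 29.0 and 68.4 normalized counts across WT tumors, against 86.3, 97.5 and 184 across knockout tumors. All 3 knockout tumors were above the WT tumors, by a narrow margin for tumor 1. The log2 fold change was 1.14 (SE 0.56, 95% interval -0.13 to 2.41), with a limma adjusted p of 0.887. Exons of Foxp3 overlap those of Ccdc22, Ppp1r3f and Gm36995 on the other strand and of Flicr on the same strand, and how strand was used in counting is not given in the sources used here, so its level is uncertain. Ccdc22 and Ppp1r3f had log2 fold changes of -0.27 and -0.36.

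Lag3, the receptor for MHC class II at chromosome 6, 124904361 to 124911705, was at 623, 473 and 299 normalized counts across WT tumors, against 400, 508 and 863 across knockout tumors. Knockout tumor 1 was below WT tumors 1 and 2. The log2 fold change of 0.33 (SE 0.38, 95% interval -0.54 to 1.2, limma adjusted p = 0.917) was smaller than the spread between tumors, and it was 0.02 without knockout tumor 3 and 0.04 without WT tumor 3. Havcr2, at chromosome 11, 46454935 to 46481255, was at 515, 306 and 271 normalized counts across WT tumors, against 312, 597 and 765 across knockout tumors. Knockout tumor 1 again lay within the WT range, and the log2 fold change was 0.58 (SE 0.40, 95% interval -0.35 to 1.5, limma adjusted p = 0.894).

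The 2 ligands of PD-1 are neighbours, 22823 bases apart on the plus strand of chromosome 19. Cd274 (29367455 to 29388095) was at 766, 477 and 414 normalized counts across WT tumors, against 523, 627 and 743 across knockout tumors. WT tumor 1 was the highest of all, and the log2 fold change of 0.23 was the smallest of the 10 (SE 0.30, 95% interval -0.45 to 0.91, limma adjusted p = 0.929). Exons of Cd274 overlap AC119228.1 on the other strand over 511 bases, so the same limit on strand holds for its level. Pdcd1lg2 (29410919 to 29471161) was far less abundant, at 29.4, 8.36 and 27.5 normalized counts across WT tumors, against 28.1, 76.2 and 69.3 across knockout tumors. Knockout tumors 2 and 3 were above every WT tumor while knockout tumor 1 was not, and the log2 fold change was 1.43 (SE 0.71, 95% interval -0.20 to 3.06, limma adjusted p = 0.887). The lowest value, in WT tumor 2, corresponds to 8.14 estimated reads.

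**Figure D2:**
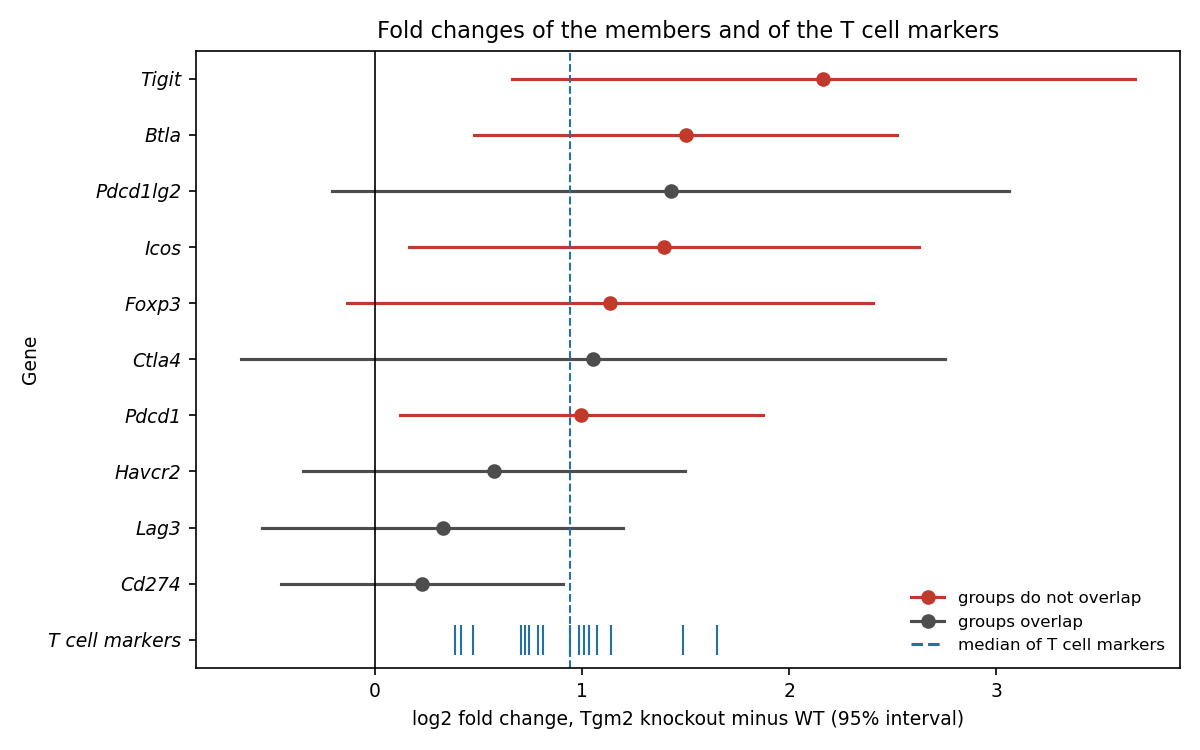
Log2 fold change (x axis, Tgm2 knockout minus WT) with its 95% limma interval for each of the 10 genes, red where the groups did not overlap and grey where they did, above the 17 T cell markers as ticks with their median of 0.94 as a dashed line. The intervals of Tigit, Btla, Icos and Pdcd1 lie above 0, and every interval but that of Cd274 holds the median of the T cell markers.

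Per kilobase of transcript, using the median length of the coding transcripts of each gene, the level over the 6 tumors was highest for Lag3, at 264 normalized counts per kb. Havcr2 (176), Cd274 (163), Tigit (134) and Pdcd1 (121) followed, then Btla at 62.8, Ctla4 at 45.7, Foxp3 at 40.1, Icos at 32.6 and Pdcd1lg2 at 23.6. Lag3 was above Havcr2 in 6 of 6 tumors and Pdcd1 was above Btla in 6 of 6. The other 7 neighbouring pairs in this order changed places in at least 2 tumors, so their order is within the spread. The order also differed by group for Tigit, at 52.9 normalized counts per kb in WT tumors (SD 41.2), below Pdcd1 at 79.7 (SD 20.6), and at 216 in knockout tumors (SD 114), beside Havcr2 at 212 (SD 87.3) and Cd274 at 174 (SD 30.3). With the longest transcript of each gene, Icos and Pdcd1lg2 exchanged places.

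T cells as a whole were assessed with 17 markers, among them Cd3e, Cd3g, Cd4, Cd8a and the receptor constant genes Trac and Trbc1. Their median log2 fold change was 0.94, and 17 of 17 had a higher mean in the knockout group. At an unadjusted p under 0.05, 3 were higher and 0 lower, and 0 passed the adjusted limits. Among all tested genes, 47.3% had a higher mean, 3.4% were higher at that unadjusted p and 5.18% were separated upward. The counts of the lists further on are to be read beside these shares. The summed T cell markers came to 3086, 1901 and 1847 normalized counts across WT tumors, against 3164, 3539 and 5816 across knockout tumors, so WT tumor 1 and knockout tumor 1 were near each other. Trac was the most abundant, with a mean of 412 normalized counts, and no marker was listed at 0 in any tumor. Cd4, the coreceptor of helper and regulatory T cells, was at 361, 138 and 160 normalized counts across WT tumors, against 449, 441 and 893 across knockout tumors (log2 fold change 1.49, SE 0.45, limma adjusted p = 0.682), and the groups did not overlap. Cd8a, the coreceptor of cytotoxic T cells, was at 153, 110 and 114 across WT tumors, against 123, 163 and 214 across knockout tumors, with a log2 fold change of 0.39 (SE 0.39), and the groups overlapped.

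To place each gene beside the T cell RNA of its own tumor, its log2 level was expressed as the difference from the mean log2 level of the 17 markers. On this scale 7 of the 10 genes were higher in the knockout group and 3 lower, and for 3 the groups were separated. Of all genes tested, 7.6% were above 0 on this scale and the median difference was -0.93, since the markers themselves were higher in the knockout group. Relative Tigit was at -0.79, -2.13 and -1.41 across WT tumors, against -0.23, -0.40 and 0.08 across knockout tumors, a difference of 1.26. Relative Cd274 was at 2.27, 2.40 and 2.13 across WT tumors, against 1.70, 1.77 and 1.3 across knockout tumors, a difference of -0.68. Relative Lag3 was at 1.97, 2.39 and 1.66 across WT tumors, against 1.31, 1.47 and 1.51 across knockout tumors, a difference of -0.58. The separation was thus upward for Tigit, against 0.758% of all genes, and downward for Lag3 and Cd274, against 32.3% of all genes. The downward values were less far below 0 than the median gene. Each had an exact permutation p of 0.1, the smallest that 3 against 3 can give, and 0.333 after Benjamini-Hochberg adjustment over the 10 tests, so none passed. With the general leukocyte genes as the reference, Tigit (1.49) and Icos (0.72) had an exact permutation p of 0.1, while Lag3 (-0.35) and Cd274 (-0.45) had an exact permutation p of 0.2 and were no longer separated. With Cd3e alone, Havcr2 (-0.46) was separated downward as well, beside Tigit, Lag3 and Cd274. The share of all genes separated was taken only with the 17 markers, so how usual separation is with other references was not tested.

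The other 7 overlapped on this scale. Pdcd1 differed by only 0.09 (WT 0.45 ± 0.10, knockout 0.54 ± 0.10, SD, n = 3 each; exact permutation p = 0.4), beside a log2 fold change close to the median of the T cell markers. Btla differed by 0.59 (exact permutation p = 0.2), Icos by 0.49 (0.2), Pdcd1lg2 by 0.52 (0.5), Foxp3 by 0.23 (0.7), Ctla4 by 0.15 (1.0) and Havcr2 by -0.33 (0.3). Without WT tumor 2, the differences of Ctla4, Foxp3 and Pdcd1lg2 were -0.49, -0.036 and 0.12. Btla was at 0.26 without WT tumor 1, and Havcr2 was at -0.14 without knockout tumor 1. Against Cd4 alone, in place of the 17 markers, Pdcd1, Ctla4, Icos, Pdcd1lg2 and Foxp3 were lower in the knockout group, with differences of -0.49, -0.43, -0.089, -0.058 and -0.35. Havcr2, Lag3 and Cd274 were lower as well, at -0.91, -1.16 and -1.26. Tigit, at 0.68, and Btla, at 0.01, were the genes still above 0 with that reference.

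**Figure D3:**
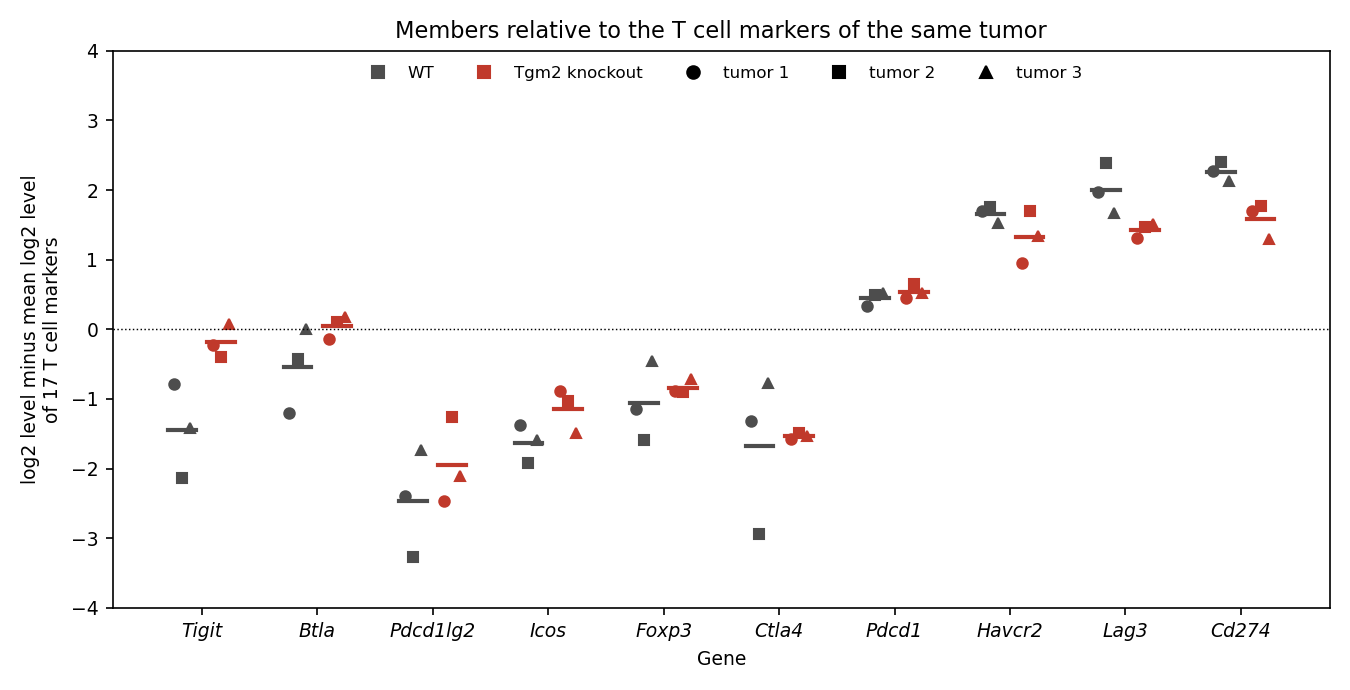
Log2 level of each gene minus the mean log2 level of 17 T cell markers in the same tumor (y axis), with 3 WT (grey) and 3 Tgm2 knockout (red) tumors per gene, symbols for tumor number and bars for group means. Tigit is higher in each knockout tumor, Lag3 and Cd274 are lower in every knockout tumor, and Pdcd1 hardly differs between the groups.

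The 10 genes followed one another across the tumors. Pearson's r over the 6 tumors, which share library and depth among all genes, was above 0 for 45 of 45 pairs and lay between 0.34 and 0.98, with a median of 0.79. Both groups were pooled, so the higher knockout means of all 10 genes enter every r. No r within a group or over all pairs of genes is given, so covariation apart from genotype was not tested. With the mean of the T cell markers, r was 0.99 for Pdcd1, 0.97 for Tigit, 0.93 for Icos, 0.90 for Foxp3 and 0.76 for Ctla4, and with the mean of the B cell markers it was 0.90, 0.96, 0.95, 0.92 and 0.81. Havcr2 had r = 0.93 with the macrophage markers and 0.88 with the T cell markers, Cd274 had 0.82 and 0.81, and Btla had 0.88 with the B cell markers, 0.88 with the dendritic cell markers and 0.84 with the T cell markers. Pdcd1 had 0.97 and Tigit 0.90 with the dendritic cell markers, so these lists were not told apart by r. Among 16737 genes with a mean of at least 10 normalized counts, the patterns most like each member over the 6 tumors included Trbc1, a T cell receptor constant gene, for Pdcd1 (r = 0.99), Ighm, the immunoglobulin mu chain, for Tigit (0.996) and Icos (0.99), the immunoglobulin segment Igkv12-44 for Btla (0.98) and the antigen peptide transporter Tap1 for Havcr2 (0.99). The gene closest to Foxp3 was Polr3b, to Lag3 Sema3d, to Cd274 Hpcal1, to Ctla4 Celf2 and to Pdcd1lg2 Tmem150b. These were the highest of many values over only 6 tumors and are descriptions.

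The fold changes of the genes that bind these receptors differed among themselves. Of 21 ligands and partners, 2 were higher and 1 lower at an unadjusted p under 0.05, and their median log2 fold change was 0.37. Cd28, the receptor that CTLA-4 opposes, was at 80.1, 24.9 and 62.2 normalized counts across WT tumors, against 156, 116 and 225 across knockout tumors (log2 fold change 1.65, SE 0.56, limma adjusted p = 0.751), without overlap. Cd80 and Cd86, the shared ligands of CD28 and CTLA-4, had log2 fold changes of 0.95 (SE 0.61) and 0.25 (SE 0.39) and overlapped. On the TIGIT axis, Pvr, the ligand of TIGIT and CD226, was at 1608, 1266 and 1390 normalized counts across WT tumors, against 995, 944 and 1079 across knockout tumors. Pvr was therefore lower in every knockout tumor (log2 fold change -0.49, SE 0.19, limma adjusted p = 0.819), the direction opposite to Tigit. Cd226 itself had a log2 fold change of 0.71 (SE 0.51) without overlap, and Nectin2 -0.17 (SE 0.27) with overlap. Icosl, Lgals9 (a ligand of TIM-3) and Tnfrsf14 (the ligand of BTLA) differed by 0.32, -0.16 and -0.18 on the log2 scale, and all 3 overlapped.

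The MHC class II genes, whose products LAG-3 binds, were the most abundant of the partners. Cd74, the invariant chain, was at 119191, 88048 and 59543 normalized counts across WT tumors, against 111093, 196056 and 235295 across knockout tumors, and H2-Aa at 48819, 44786 and 27997 and at 44487, 89498 and 92772. In both, knockout tumor 1 lay within the WT range and knockout tumors 2 and 3 above it. The log2 fold changes were 1.01 (SE 0.51) and 0.86 (SE 0.42). The 2 partners higher at an unadjusted p under 0.05 were Cd28 and H2-Eb1, another class II chain, and Pvr was the 1 lower. H2-Eb1 had a log2 fold change of 0.94 (SE 0.40, limma adjusted p = 0.858), and its groups overlapped.

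Other genes of regulatory T cells were spread from a log2 fold change of -0.68 for Nt5e (CD73, SE 0.59, with overlap) to values near that of Foxp3. Of the 15 listed beside Foxp3, 1 was higher and 0 lower at an unadjusted p under 0.05, with a median log2 fold change of 0.07, and 2 were higher in every knockout tumor. Il2ra (CD25, the receptor that captures interleukin 2) was at 332, 120 and 124 normalized counts across WT tumors, against 157, 246 and 255 across knockout tumors, a log2 fold change of 0.33 (SE 0.48). Ikzf2 (Helios) and Tnfrsf18 (GITR) had log2 fold changes of 0.02 (SE 0.45) and 0.01 (SE 0.40), and the groups overlapped for all 3. Izumo1r (folate receptor 4), which regulatory T cells carry, was at 51.1, 22.5 and 28.3 normalized counts across WT tumors, against 66.8, 77.8 and 68.0 across knockout tumors, a log2 fold change of 1.12 (SE 0.53) without overlap. The chemokine receptor gene Ccr8 and the integrin gene Itgae had 0.96 (SE 0.66) and 0.89 (SE 0.48), with overlap. Entpd1 (CD39, an ectonucleotidase also found on other leukocytes and vessels) was the one past that unadjusted limit, with a log2 fold change of 0.77 (SE 0.26) and no overlap. The most abundant of the list, Capg and Tgfb1, are expressed by many cell types and had log2 fold changes of -0.40 and 0.07.

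The checkpoint and costimulatory genes outside the 10 ranged from a log2 fold change of -0.53 to one of 1.5, with a median of 0.02. Of 18 tested, 0 were higher and 1 lower at an unadjusted p under 0.05, and 2 were higher in every knockout tumor. Those 2 were Klrg1, an inhibitory receptor of differentiated T and natural killer cells (1.5, SE 0.71), and Cd27, a costimulatory receptor (0.77, SE 0.57), both at few normalized counts. The lower gene was Cd276 (B7-H3), at 1353, 971 and 1232 normalized counts across WT tumors, against 749, 980 and 733 across knockout tumors (log2 fold change -0.53, SE 0.23, limma adjusted p = 0.858). Vsir (VISTA), a myeloid and T cell checkpoint, and the collagen receptor Lair1 were the most abundant, with log2 fold changes of 0.68 and 0.02. Their groups overlapped.

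Transcription factors of T cell activation and exhaustion had a median log2 fold change of 0.57, with 2 of 14 higher and 0 lower at an unadjusted p under 0.05. These were Tbx21 (T-bet) and Irf4, with log2 fold changes of 1.85 (SE 0.72) and 2.63 (SE 0.50), and Irf4 is also a plasma cell factor. Maf and Tcf7, the most abundant, had 0.28 and 0.10. The 19 signalling genes below the receptors included 0 past that unadjusted limit in either direction and had a median of 0.30, with Bag6 at 0.05 and Akt1 at 0.00. In the interferon gamma axis, which induces Cd274, 4 of 20 genes were higher and 0 lower, with a median of 0.57. Ifng itself was at 3.38, 0.77 and 7.39 normalized counts across WT tumors, against 12.7, 10.2 and 12.1 across knockout tumors, without overlap but at a level of few reads (log2 fold change 1.65, SE 0.78, limma adjusted p = 0.881). Cxcl9, an interferon-induced chemokine that draws T cells, was at 2131, 764 and 321 across WT tumors, against 1626, 5372 and 8048 across knockout tumors (log2 fold change 2.35, SE 0.74), and its groups overlapped. That fold change was the largest of the 20, and Cxcl9 was chosen after its value was seen. Cxcl10, on the same list, was at 2844.5, 2389 and 779 across WT tumors, against 1062, 2213 and 1933 across knockout tumors. Its log2 fold change was -0.07 (SE 0.49), with overlap. Iigp1 was at 2260, 2011 and 1450 across WT tumors, against 3158, 5023 and 6207 across knockout tumors, without overlap. Of the 20 genes, 17 had a higher mean in the knockout group and 3 a lower one.

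**Figure D4:**
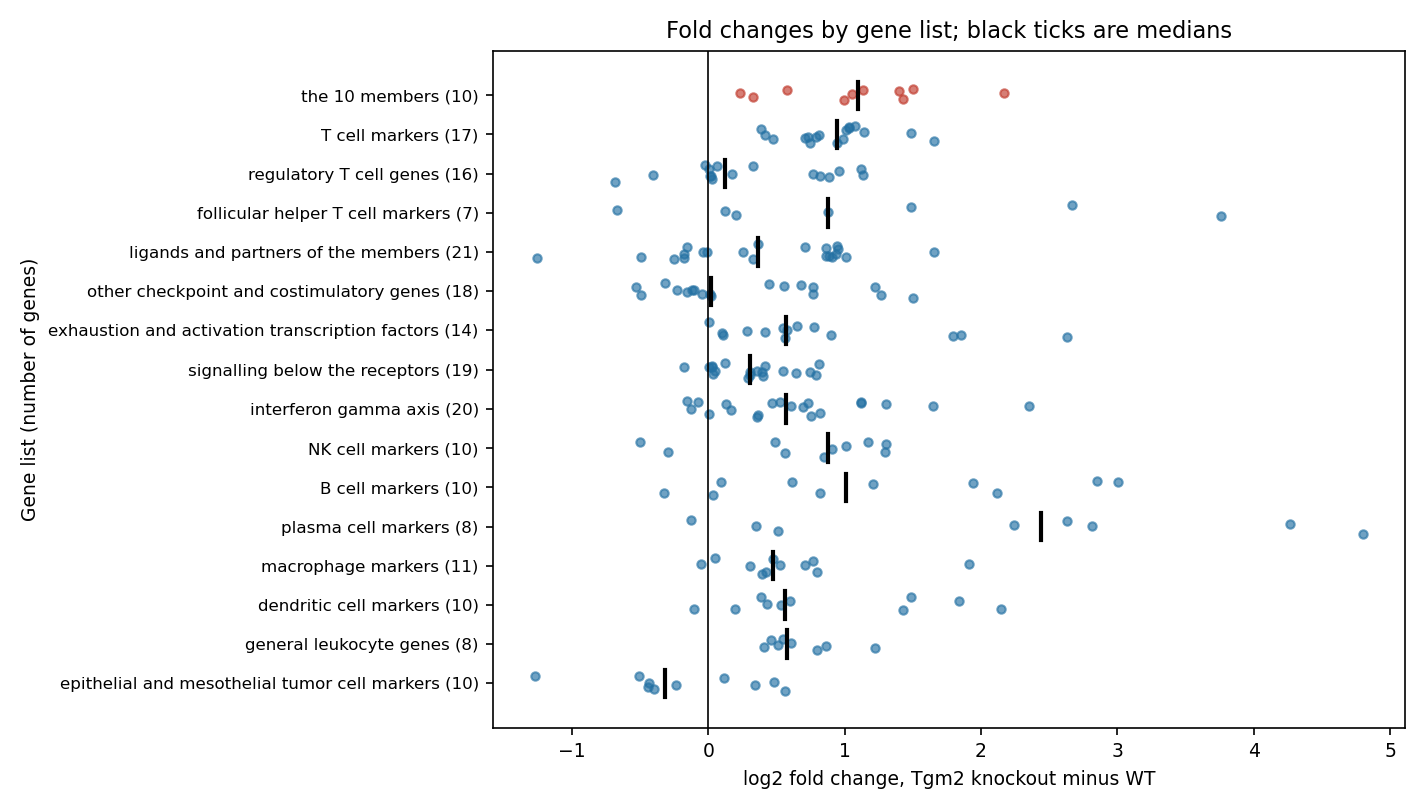
Log2 fold change (x axis, Tgm2 knockout minus WT) of each gene in the set of 10 and in 15 other lists, 1 point per gene with vertical jitter, and black ticks for medians. The 10 genes lie above 0 with a median of 1.09, next to the T cell markers at 0.94, whereas the 16 regulatory T cell genes, Foxp3 included, have a median of 0.12 and the plasma cell markers one of 2.44.

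Markers of other cell types were measured in the same tumors. B cell markers (10 genes) summed to 812, 513 and 659 normalized counts across WT tumors, against 1751, 1647 and 2514 across knockout tumors. Of them 5 were higher and 0 lower at an unadjusted p under 0.05, the median log2 fold change was 1.01, and the most abundant, Cd79a, passed the adjusted limits (log2 fold change 3.01, SE 0.34, limma adjusted p = 0.0264). Plasma cell markers (8 genes, 5 higher and 0 lower, median 2.44) included 2 past the adjusted limits, Jchain and Mzb1, at 4.80 and 4.27. The part of B cells in the Btla value, and of B and plasma cells in the others, was not tested.

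Follicular helper T cell markers had a median of 0.88, with 3 of 7 higher and 0 lower. They included Cxcr5, the receptor that guides these cells and B cells to follicles (log2 fold change 1.49, SE 0.62), and Il21. Il21 was listed at 0 in WT tumors 1 and 2 and at 0.96 in WT tumor 3. Across knockout tumors it was at 3.91, 7.43 and 11.2 normalized counts (SE of the log2 fold change 0.75, limma adjusted p = 0.649). Pou2af1, a B cell coactivator on that list, passed the adjusted limits with 3.76 (SE 0.49, limma adjusted p = 0.0439). Bcl6, the most abundant, had a log2 fold change of 0.21.

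Dendritic cell markers had 4 of 10 higher and 0 lower with a median of 0.56. Their sum was 9586, 5799 and 4703 normalized counts across WT tumors, against 7447, 8086 and 11987 across knockout tumors, and Fscn1 was the most abundant. Clec9a and Xcr1, which mark cross-presenting dendritic cells, had log2 fold changes of 2.15 (SE 0.40) and 1.84 (SE 0.61) without overlap. Macrophage markers, led by C1qa, summed to 60870, 42044 and 26441 across WT tumors, against 31038, 86364 and 66549 across knockout tumors, with 2 of 11 higher, 0 lower and a median of 0.48. Knockout tumor 1 was thus second lowest for macrophage markers, and it was the lowest knockout tumor for all 10 genes of the set. Natural killer cell markers, led by Klrk1, had 0 of 10 past that unadjusted limit and a median of 0.88. Their sum was 455, 412 and 266 across WT tumors, against 442, 704 and 848 across knockout tumors. General leukocyte genes, led by Laptm5, had 1 of 8 higher, 0 lower and a median of 0.58. The part of each of these cells was not tested.

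Lymphoid stroma markers had 2 of 9 higher and 0 lower with a median of 0.54, led by the chemokine gene Ccl21a (log2 fold change -0.49). The 2 higher genes were Glycam1, at 2.20 (SE 0.93), and Ccl21b, at 2.74 (SE 1.01), which shares sequence with Ccl21a, so that both chemokine values, and the count that includes one of them, are uncertain. White adipocyte markers had 9 of 10 higher and 0 lower, a median of 1.80 and sums of 43160, 56185 and 32771 normalized counts across WT tumors, against 46464, 166640 and 98077 across knockout tumors, with Lep past the adjusted limits and Lpl the most abundant. Ovarian follicle and luteal markers, led by Star, had 0 of 9 past that unadjusted limit and a median of 0.66, and their sums were highest in knockout tumor 1 (45708) and WT tumor 1 (18609). The tumor cell markers had a median of -0.32, with 0 of 10 past that unadjusted limit and 2 lower in every knockout tumor, among them Krt8 (log2 fold change -0.43, SE 0.26). The part of adipose, ovarian and tumor cell content was not tested.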

How the data were processed

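RNA of 6 tumors was sequenced by the authors from poly(A) libraries (paired reads), and per the labels quantified with kallisto 0.46.2 on GRCm38. The deposited table holds 1 signal value per gene and tumor, titled TPM. Its low values fell on steps of 1 read, so it was treated as estimated counts divided by size factors. Every column was mapped to a sample.

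Values were analysed as log2(value + 1) for genes that reached 1 in 3 or more tumors. limma 3.58.1 (R 4.3.3; trend, Benjamini-Hochberg over 19667 genes, limits adjusted p 0.05 and log2 fold change 1) compared the groups. Fold changes are on this scale and understate changes of low genes. Exact permutation tests were two-sided, over 20 splits. Values are means ± SD. On simulated data (19461 genes) for this comparison, 97.8% of genes changed by a log2 of 4 and 68.4% of those changed by 2 were recovered. The simulated SD followed the mean level alone, without a spread of its own for each gene.

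The genes, lists and tests were chosen with earlier results of these data known. Named genes were drawn from the members, their direct partners, Il2ra, Ikzf2, Tnfrsf18, Cd3e, Cd4, Cd8a, Ifng and Tgm2, the 2 most abundant genes of each list, listed genes past the limits and the genes most like each member. Others were chosen after their values were seen (Cd276, Klrg1, Cd27, Entpd1, Nt5e, Izumo1r, Ccr8, Itgae, Tbx21, Irf4, Cxcl9, Cxcl10, Iigp1, Clec9a, Xcr1, Cxcr5, Il21, Glycam1, Ccl21b, Foxl2, Lhcgr, Gdf9, Epcam), and Ccdc22 and Ppp1r3f were named for their overlap with Foxp3. One gene that this rule names is not reported here. Sequences are from RefSeq and gene positions from GENCODE M21. Alternatives covered scaling, filters, pseudocounts, covariates, the replicate block and each tumor left out. Single-read steps hold only for genes with 1 transcript, so no count model was run.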

Additional observations from a re-analysis of the deposited data

How the results depend on the processing

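With 3 tumors a group the fit recovered 68.4% of simulated log2 changes of 2, and smaller changes were not simulated. The simulated noise was independent between genes and tumors, with an SD set by the mean level alone. The recovered share may therefore not hold for the 10 genes. The genes with few reads (Ctla4, Pdcd1lg2) carry counting error as well. The number of genes called among all tested was 20, 5 with the replicate block, 4 without a variance trend, 4 with the T cell marker covariate, 0 with the white adipocyte covariate, between 2 and 14 with each tumor left out (2 without WT tumor 2) and 1137 at an unadjusted p with no limit on the fold change. Tumor numbers did not pair the tumors (same-number correlations of -0.20, 0.28 and -0.31), so the block is only an alternative. None of the 10 genes was called in any limma fit with adjusted p, and the lowest adjusted p over all alternatives was 0.342, for Tigit; 4 passed the unadjusted limit, with no limit on the fold change. Tigit, Btla, Pdcd1, Icos, Foxp3 and Pdcd1lg2 had a positive log2 fold change in all 19 alternatives, but with the T cell marker covariate these were only between 0.16 (Foxp3) and 0.99 (Btla). With it Ctla4, Lag3, Havcr2 and Cd274 reversed (-0.23, -0.61, -0.43 and -0.43), and with the white adipocyte covariate Lag3, Havcr2 and Cd274 did (-0.26, -0.26 and -0.029). Both covariates were higher in every knockout tumor and are confounded with genotype. The count of separated genes was 5, 2 (Tigit and Btla) after quantile normalization, 6 with columns scaled to 1 sum, between 5 and 8 with each tumor left out (8 without WT tumor 1 or knockout tumor 1), and 10 without both of these. The shares of all genes higher without overlap were 5.18%, 5.15%, 4.92%, between 9% and 12% (12% and 9.64%), and 17.6%. Leaving out WT tumor 1 and knockout tumor 1 favored separation, since they were the highest WT tumor for all but Btla and the lowest knockout tumor. With each tumor left out, log2 fold changes ranged from 0.27 to 1.49 for Ctla4, 0.02 to 0.57 for Lag3, 0.30 to 0.95 for Havcr2, 0.05 to 0.49 for Cd274, 0.88 to 1.87 for Pdcd1lg2 and 0.73 to 1.35 for Foxp3, lowest without WT tumor 2 for Ctla4, Pdcd1lg2 and Foxp3, without WT tumor 3 for Cd274 and without knockout tumor 3 for Lag3 and Havcr2. Relative to general leukocyte genes, Lag3 (-0.35) and Cd274 (-0.45) were no longer separated and Icos (0.72) was. The share of all genes separated was not taken with that reference. Relative to T cell RNA, Pdcd1 reversed with Cd3e (-0.036) and Cd4 (-0.49) as reference, as did Ctla4 (-0.43), Icos (-0.089), Pdcd1lg2 (-0.058) and Foxp3 (-0.35) with Cd4. With Cd4, Havcr2, Lag3 and Cd274 moved further down, to -0.91, -1.16 and -1.26. Leaving out single tumors gave -0.49 to 0.60 for Ctla4 and -0.036 to 0.54 for Foxp3, both negative without WT tumor 2. The range was 0.12 to 0.89 for Pdcd1lg2, 0.26 to 0.86 for Btla, -0.52 to -0.14 for Havcr2 and 0.03 to 0.14 for Pdcd1. The causes were not tested.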
